A study of Mus musculus with 20 samples.

Results

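The unfolded protein response (UPR) was followed through 35 mouse genes, chosen by symbol and sorted by the arm of the response that is best known for driving them. The liver arrays measured 34 of them, among 16464 named genes in all. The PERK branch had 9 measured genes, the IRE1 branch 8 and the ATF6 branch 17. Sec61b of the IRE1 branch was not analysed here, and Ero1l appears under its current symbol, Ero1a. The sorting is a textbook one, and several of these genes answer to more than 1 arm.

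RNA came from the left lateral liver lobe of male mice of the C57BL/6 strain, 10 weeks old and 21 to 27 g in weight. All mice were gavaged for 25 days. The groups received ethinylestradiol (EE2, a synthetic estrogen) at 3.70 mg/kg in sunflower oil, sunflower oil alone, chlorpromazine (CPZ, an antipsychotic drug) at 10 mg/kg in PBS, or PBS alone, with 5 arrays each. Both compounds are known causes of cholestasis, in which bile flow fails. Each array carries its group and the number that its label gives it. The labels do not state that each sample was a separate mouse, so the p-values cover only the variation among these samples.

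The endoplasmic reticulum (ER) folds secreted and membrane proteins, and the hepatocyte secretes most plasma proteins through it. When unfolded proteins build up there, the kinase PERK slows translation and favours translation of the transcription factor ATF4, the nuclease IRE1 splices the mRNA of the transcription factor XBP1, and ATF6 is cut free from the membrane to enter the nucleus. ATF4 is best known for amino acid supply, redox and cell death genes, XBP1 for secretion and disposal of misfolded proteins (ER-associated degradation, ERAD), and ATF6 for chaperones. The arrays measured mRNA levels alone: PERK and IRE1 activity, Xbp1 splicing, ATF4 translation and ATF6 cleavage were not measured.

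ATF6 and XBP1 are known to act through the ER stress response element (ERSE), which is CCAAT, then 9 bases of any kind, then CCACG. ATF4 acts through a shorter element (CARE), searched as TGATG, then any base, then AA. Both strands of the RefSeq promoter table (build GRCm38.p6, 250 bases before to 50 after each start) were searched, and 30 of the 34 genes had an entry. The full ERSE stood in the promoters of 9 of the 30 genes (30%), against 37 of the 27025 genes in the table (0.137%). Among the 13162 measured genes in the table the share was 0.144%. These are the stretches with 10 bases on each side, shown because 3 of these genes rose with EE2, 2 fell and 4 were not called. The parts in capitals are CCAAT and CCACG, and each line reads 5′ to 3′ on the strand that carries the element in this order.
Hspa5, chr2:34772015-34772053, plus strand: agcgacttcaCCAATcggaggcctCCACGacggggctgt
Creld2, chr15:88819510-88819548, minus strand: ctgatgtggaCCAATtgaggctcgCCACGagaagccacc
Hsp90b1, chr10:86705523-86705561, plus strand: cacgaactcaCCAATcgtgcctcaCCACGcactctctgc
Hsp90b1, chr10:86705628-86705666, minus strand: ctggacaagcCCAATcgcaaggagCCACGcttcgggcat
Derl3, chr10:75893232-75893270, minus strand: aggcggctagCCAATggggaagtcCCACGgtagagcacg
Canx, chr11:50325790-50325828, minus strand: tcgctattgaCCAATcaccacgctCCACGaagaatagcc
Calr, chr8:84847065-84847103, plus strand: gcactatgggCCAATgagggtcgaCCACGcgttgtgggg
Dnajc3, chr14:118937817-118937855, plus strand: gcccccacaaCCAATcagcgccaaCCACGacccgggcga
Pdia6, chr12:17266481-17266519, plus strand: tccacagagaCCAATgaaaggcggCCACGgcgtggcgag
Syvn1, chr19:6046522-6046560, plus strand: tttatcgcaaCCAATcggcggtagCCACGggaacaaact

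The nearest base of the element lay 26 bases before the start in Syvn1, 47 in Hspa5 and 138 in Derl3, and Hsp90b1 held 2 copies, 89 and 194 bases before its start. The 5-base CCACG end alone stood in the promoters of 80% of these genes, of 46.6% of the measured genes and of 35.5% of all genes in the table. The XBP1 element was searched as TGACG followed directly by TGG, which contains the CCACG end on its other strand. It stood in the promoters of 0 of the 30 genes, of 0.957% of the measured genes and of 0.714% of all. A match is a description of the letters and not evidence that a factor binds there. Only exact matches were counted, so an element that differs by a single base is counted as absent.

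The CARE stood in the promoters of 5 of the 30 genes (16.7%), against 3.17% of the measured genes and 4.51% of all genes in the table. The matches of the genes that rose with EE2, Asns and Atf3, are set beside those of Chac1 and Herpud1, which were not called. Trib3 held its match after the start. Capitals mark the 8 bases of the element.
Asns, chr6:7693215-7693242, minus strand: cccagccacaTGATGAAActtcccgcac
Atf3, chr1:191183426-191183453, plus strand: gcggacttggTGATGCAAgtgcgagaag
Chac1, chr2:119351039-119351066, minus strand: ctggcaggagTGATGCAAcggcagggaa
Herpud1, chr8:94386307-94386334, minus strand: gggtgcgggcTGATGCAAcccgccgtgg

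**Figure D1:**
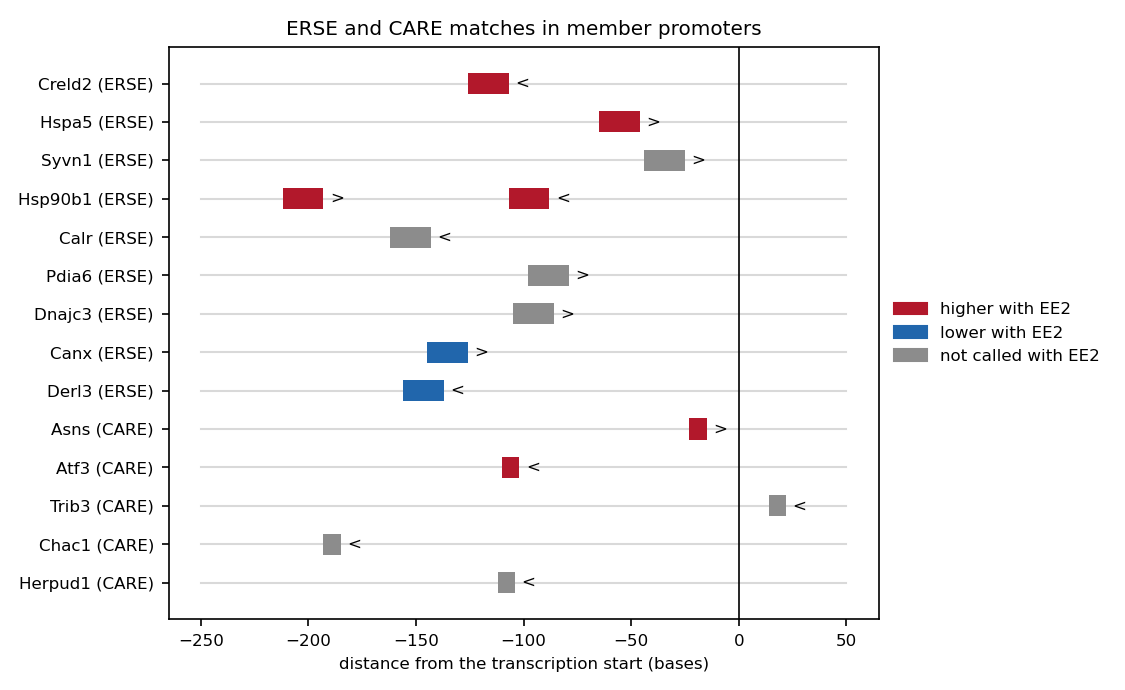
Position of each full ERSE and CARE match in the promoters of the measured genes, in bases from the transcription start at 0; the arrowheads give the strand relative to the gene and the colour the call with EE2. Matches to the ERSE lie before the start in all 9 promoters, in genes that rose, fell and were not called.

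Precision is limited by having 5 arrays in a group. The deposited values are log2 levels. Every change below is the mean of 1 group minus that of another on this scale, its standard error (SE) is the one limma fitted, and a gene was called where its p adjusted over all 16464 genes was under 0.05. Array medians stood at 4.59 to 4.61 with EE2, against 4.43 to 4.46 with oil, and at 4.46 to 4.48 with CPZ, against 4.43 to 4.46 with PBS. Centring each array on its median therefore lowers every EE2 change by a constant, and calls that depend on it are given. The lower quartile of all genes averaged 3.06 with EE2 and 3.16 with oil. Hepatocyte marker levels averaged 13.03 to 13.14 on the EE2 arrays and 12.84 to 13.00 on the oil arrays. Of the 9 markers 3 rose and 3 fell, with a median change of -0.01 (2 rose and 5 fell with centring), and Alb, the albumin gene, stood at 14.15 ± 0.01 with EE2 and 14.16 ± 0.03 with oil (SD, n = 5 each).

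The first comparison asked how EE2 changed these genes relative to its oil vehicle. Of the 34 genes 11 rose and 2 fell, and 21 were not called. Over all genes 45.9% were called, 19.2% higher and 26.7% lower, so the members' 32.4% higher and 5.88% lower stood above and below the background. The median change of the members was 0.10, against -0.07 over all genes, and 27 of the 34 lay above the median of all genes. With each array centred 8 rose and 10 fell, where 71.2% of all genes were called, 12.7% higher and 58.5% lower. The genes that rose under both scalings were Asns, Atf3, Ero1a, Hspa5, Manf, Creld2, P4hb and Selenos, and those that fell under both were Derl3 and Canx. The 5 EE2 arrays lay above all 5 oil arrays for 6 members and below them for 1. The groups were apart in this way for 31.8% of all genes, 14.6% higher and 17.2% lower.

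By branch, 3 of 9 PERK genes, 1 of 8 IRE1 genes and 7 of 17 ATF6 genes rose, and the 2 that fell belong to the ATF6 branch. The shares that rose were 33.3%, 12.5% and 41.2%, where 19.2% of all genes rose and 26.7% fell. Centred, the counts that rose and fell were 3 and 3 for PERK, 0 and 3 for IRE1, and 5 and 4 for ATF6. With centring 12.7% of all genes rose and 58.5% fell, so lower calls were common among all genes.

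**Figure D2:**
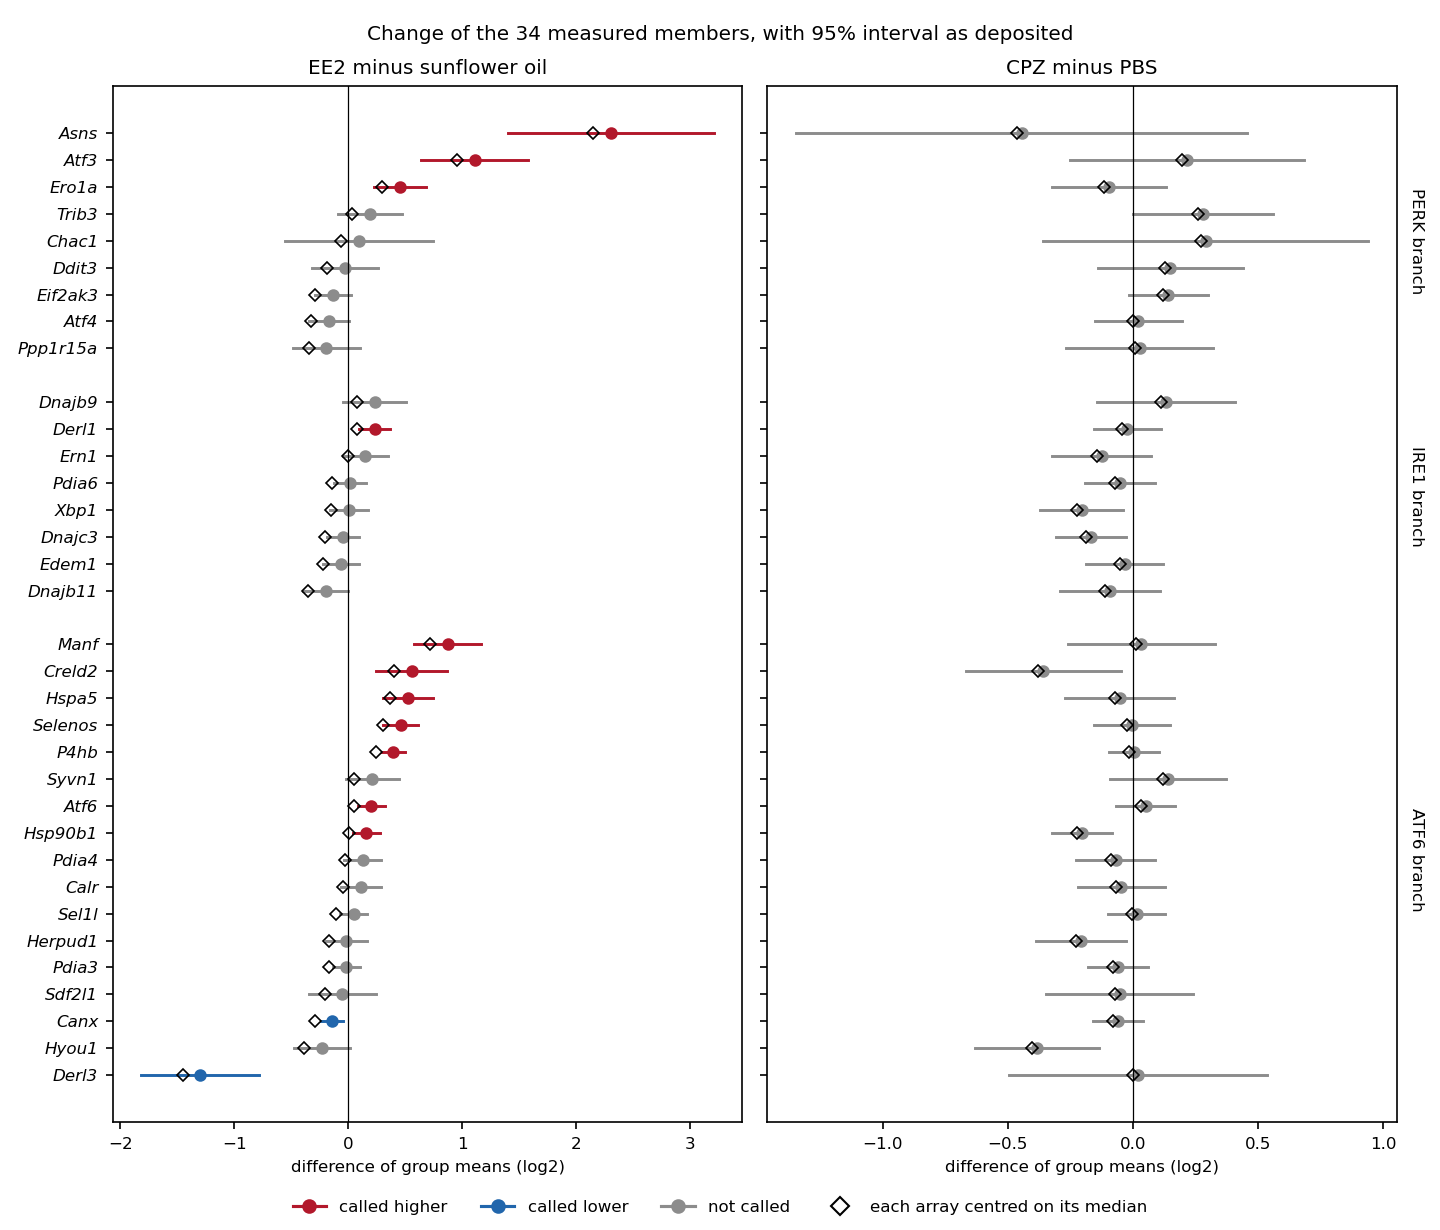
Change of each of the 34 genes with EE2 minus sunflower oil (left) and CPZ minus PBS (right), as a log2 difference with its 95% interval, grouped by branch; open diamonds show the same change with each array centred on its median. Asns rose by 2.30 and Derl3 fell by 1.30 with EE2, while no gene was called with CPZ.

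Among the sensors, Atf6 (Entrez gene 226641) stood at 7.43, 7.22, 7.32, 7.30 and 7.34 on EE2 arrays 9, 13, 15, 17 and 18, and at 7.15, 7.09, 7.02, 7.21 and 7.13 on oil arrays 2, 5, 6, 8 and 16. All EE2 arrays lay above all oil arrays, with EE2 array 13 close to oil array 8. The change was 0.20 (SE 0.06, limma adjusted p = 0.00598), and it was not called with centring (0.05, adjusted p = 0.456) or quantile normalization (0.13, adjusted p = 0.077). Eif2ak3 (13666), which encodes PERK, averaged 3.43 ± 0.10 with EE2 and 3.56 ± 0.13 with oil (SD, n = 5 each), near the lower quartile of all genes, and its change of -0.13 (adjusted p = 0.154) was not called, though with centring it was (-0.29, adjusted p = 0.0027). Ern1 (78943), which encodes IRE1, averaged 4.47 ± 0.15 with EE2 and 4.32 ± 0.23 with oil, a change of 0.15 (adjusted p = 0.197) that was called without oil array 8 (0.23, adjusted p = 0.04).

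The transcription factors that the sensors act on were not called. Xbp1 (22433) stood between 11.44 and 11.48 on the EE2 arrays and between 11.26 and 11.62 on the oil arrays, a change of 0.00 with a 95% interval of -0.16 to 0.17. The EE2 arrays thus lay inside the range of the oil arrays. Atf4 (11911) averaged 9.47 ± 0.13 with EE2 and 9.64 ± 0.07 with oil, a change of -0.17 (adjusted p = 0.103) that was called with centring (-0.32, adjusted p = 0.00198).

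In the PERK branch, Asns (27053), which encodes asparagine synthetase, changed most. It stood at 6.42, 7.14, 7.03, 7.68 and 7.60 on the EE2 arrays, in the order of sample number used above, and at 4.82, 4.90, 4.40, 5.12 and 5.11 on the oil arrays. The groups did not overlap, and the change was 2.30 (SE 0.43, 4.93-fold, adjusted p = 0.000192). The 5 PBS arrays, 7, 10, 14, 19 and 20, stood at 5.25, 6.09, 5.82, 7.74 and 6.44, so the oil arrays were low against them and the EE2 range lay wholly inside the PBS range. Atf3 (11910), a stress-induced transcription factor, stood at 5.97, 4.99, 4.46, 5.26 and 5.88 with EE2 and at 4.74, 4.29, 4.23, 3.81 and 3.96 with oil. EE2 array 15 lay below oil array 2, and the change was 1.11 (SE 0.23, 2.16-fold, adjusted p = 0.000419). Ero1a (50527), an oxidase that lets PDI family enzymes form disulfide bonds, stood at 5.09, 5.43, 5.08, 4.95 and 5.35 with EE2 and at 4.98, 4.71, 4.81, 4.46 and 4.67 with oil. EE2 array 17 alone lay below the highest oil array, and the change was 0.45 (SE 0.11, 1.37-fold, adjusted p = 0.00185).

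The genes of this branch best known for cell death and for ending the response were not called. Ddit3 (13198), which encodes CHOP, averaged 6.21 ± 0.11 with EE2 and 6.24 ± 0.26 with oil, a change of -0.03 with a 95% interval of -0.32 to 0.26. Trib3, a pseudokinase gene induced by ATF4 and CHOP, changed by 0.19 (SE 0.13, adjusted p = 0.256). Chac1, a glutathione-degrading enzyme gene, changed by 0.10 with an interval of -0.55 to 0.75, and it ranged from 5.78 to 6.54 with EE2 and from 4.71 to 6.66 with oil. Its interval holds both a fall and a rise, so this design leaves its change unresolved. Ppp1r15a, the phosphatase subunit gene that reverses eIF2α phosphorylation, changed by -0.19 (adjusted p = 0.274), or by -0.35 with centring (adjusted p = 0.0346).

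In the IRE1 branch 1 gene was called. Derl1 (67819), which encodes a membrane protein of ERAD, stood at 9.24, 9.32, 9.36, 9.49 and 9.17 with EE2 and at 9.12, 9.08, 8.92, 9.13 and 9.16 with oil. The groups did not overlap and the change was 0.23 (SE 0.06, adjusted p = 0.00603), but with centring it was 0.08 (adjusted p = 0.292). The ER co-chaperone Dnajb9 changed by 0.23 (SE 0.13, adjusted p = 0.158), Pdia6 by 0.01, Dnajc3 by -0.05, Edem1 by -0.06 and Dnajb11 by -0.20, and the last 3 were called lower with centring. Dnajb11 was also called lower without oil array 6 (-0.25, adjusted p = 0.0441) or without EE2 array 15 (-0.28, adjusted p = 0.0147).

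The ATF6 branch holds the main ER chaperones. Hspa5 (14828) encodes BiP, the chaperone that keeps all 3 sensors inactive in unstressed cells. It stood at 11.28, 11.07, 11.50, 11.35 and 11.45 on the EE2 arrays, against 11.20, 10.51, 10.88, 10.64 and 10.81 on the oil arrays. Oil array 2 alone reached into the EE2 range, above EE2 array 13, and the change was 0.53 (SE 0.10, 1.44-fold, adjusted p = 0.000337). Manf (74840), a secreted ER protein, stood at 11.10, 10.84, 11.45, 11.17 and 11.15 with EE2 and at 10.76, 9.81, 10.43, 10.07 and 10.27 with oil. The groups did not overlap, and at 0.87 (SE 0.14, 1.83-fold, adjusted p = 3.72e-05) this was the largest rise in the branch. Creld2 (76737), another secreted ER protein, stood at 9.10, 8.66, 9.32, 8.83 and 9.21 with EE2 and at 8.89, 8.25, 8.36, 8.42 and 8.40 with oil. Oil array 2 again reached into the EE2 range, and the change was 0.56 (SE 0.15, 1.47-fold, adjusted p = 0.00457).

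The promoter of Hspa5, from which the ERSE match above was taken, read over the 170 bases before its start (chr2:34771920-34772089, plus strand) as follows, with capitals only for the CCAAT and CCACG that make up the full ERSE. A further CCAAT in lower case is followed after 9 bases by CCAAC in place of CCACG, and was not counted.
Hspa5 promoter: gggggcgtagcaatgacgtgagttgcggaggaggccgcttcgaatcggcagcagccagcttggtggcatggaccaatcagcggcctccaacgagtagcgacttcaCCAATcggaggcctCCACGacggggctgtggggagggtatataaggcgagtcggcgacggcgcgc

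The branch also holds genes of oxidative folding and disposal. P4hb (18453), which encodes protein disulfide isomerase, stood at 12.70, 12.79, 12.68, 12.76 and 12.78 with EE2 and at 12.41, 12.37, 12.21, 12.37 and 12.39 with oil. All EE2 arrays lay above all oil arrays, and the change of 0.39 (SE 0.05, 1.31-fold) had the smallest adjusted p among the members (9.93e-07). Selenos (109815), a selenoprotein of the ERAD complex, stood at 10.65, 10.47, 10.70, 10.63 and 10.69 with EE2 and at 10.27, 9.99, 10.25, 10.22 and 10.12 with oil, also with no overlap (change 0.46, SE 0.07, adjusted p = 3.14e-05). Hsp90b1 (22027), which encodes the chaperone GRP94, averaged 12.25 ± 0.08 with EE2 and 12.09 ± 0.09 with oil. Its change of 0.16 (SE 0.06, adjusted p = 0.0284) was 0.00 with centring (adjusted p = 0.949). It was not called in a fit of these 10 arrays alone (adjusted p = 0.053), or when oil array 5, 6 or 16 or EE2 array 15 or 18 was left out (adjusted p = 0.0604 to 0.0832).

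Derl3 (70377), the Derlin paralog known for its induction in the UPR, moved the other way. It stood at 5.73, 5.43, 5.91, 4.95 and 5.62 on the EE2 arrays, against 7.18, 6.70, 6.56, 7.14 and 6.55 on the oil arrays. The groups did not overlap, and the change was -1.30 (SE 0.25, to 0.407 times the oil level, adjusted p = 0.000221). The PBS arrays stood at 5.73, 6.12, 5.85, 5.78 and 6.15, so the oil arrays were high against them. Its 170 bases before the start (chr10:75893228-75893397, plus strand) are shown because Derl3 fell while carrying the same element as Hspa5, and here the capitals mark only the 2 parts of the full ERSE, as the reverse complements of CCACG and CCAAT in that order. Single copies of either part elsewhere in both stretches are left in lower case.
Derl3 promoter: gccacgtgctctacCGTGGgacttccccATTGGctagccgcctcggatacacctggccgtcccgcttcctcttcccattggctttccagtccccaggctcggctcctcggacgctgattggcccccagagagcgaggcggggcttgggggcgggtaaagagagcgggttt

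Canx (12330), the membrane-bound lectin chaperone calnexin, stood at 9.51, 9.50, 9.58, 9.61 and 9.52 with EE2 and at 9.75, 9.68, 9.58, 9.74 and 9.69 with oil. Oil array 6 lay among the EE2 arrays, and the change was -0.14 (SE 0.05, adjusted p = 0.0201). Without oil array 2 it was -0.12 and not called (adjusted p = 0.0527). The other members of the branch were not called as deposited. Calr, the soluble partner of Canx, changed by 0.11 and the disulfide isomerase genes Pdia4 and Pdia3 by 0.13 and -0.02, of which Pdia3 was called lower with centring (-0.17, adjusted p = 0.0113). Herpud1 and Sdf2l1, known as sharply UPR-induced genes, changed by -0.02 with an interval of -0.20 to 0.16 and by -0.05 with an interval of -0.34 to 0.24. Hyou1 (12282), an HSP70-type ER chaperone gene, changed by -0.23 (adjusted p = 0.122) and was called lower with centring (-0.38, adjusted p = 0.00714) and with quantile normalization (-0.36, adjusted p = 0.0158). Of the ERAD ligase genes, Sel1l changed by 0.05 and Syvn1 by 0.21 (adjusted p = 0.132).

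**Figure D3:**
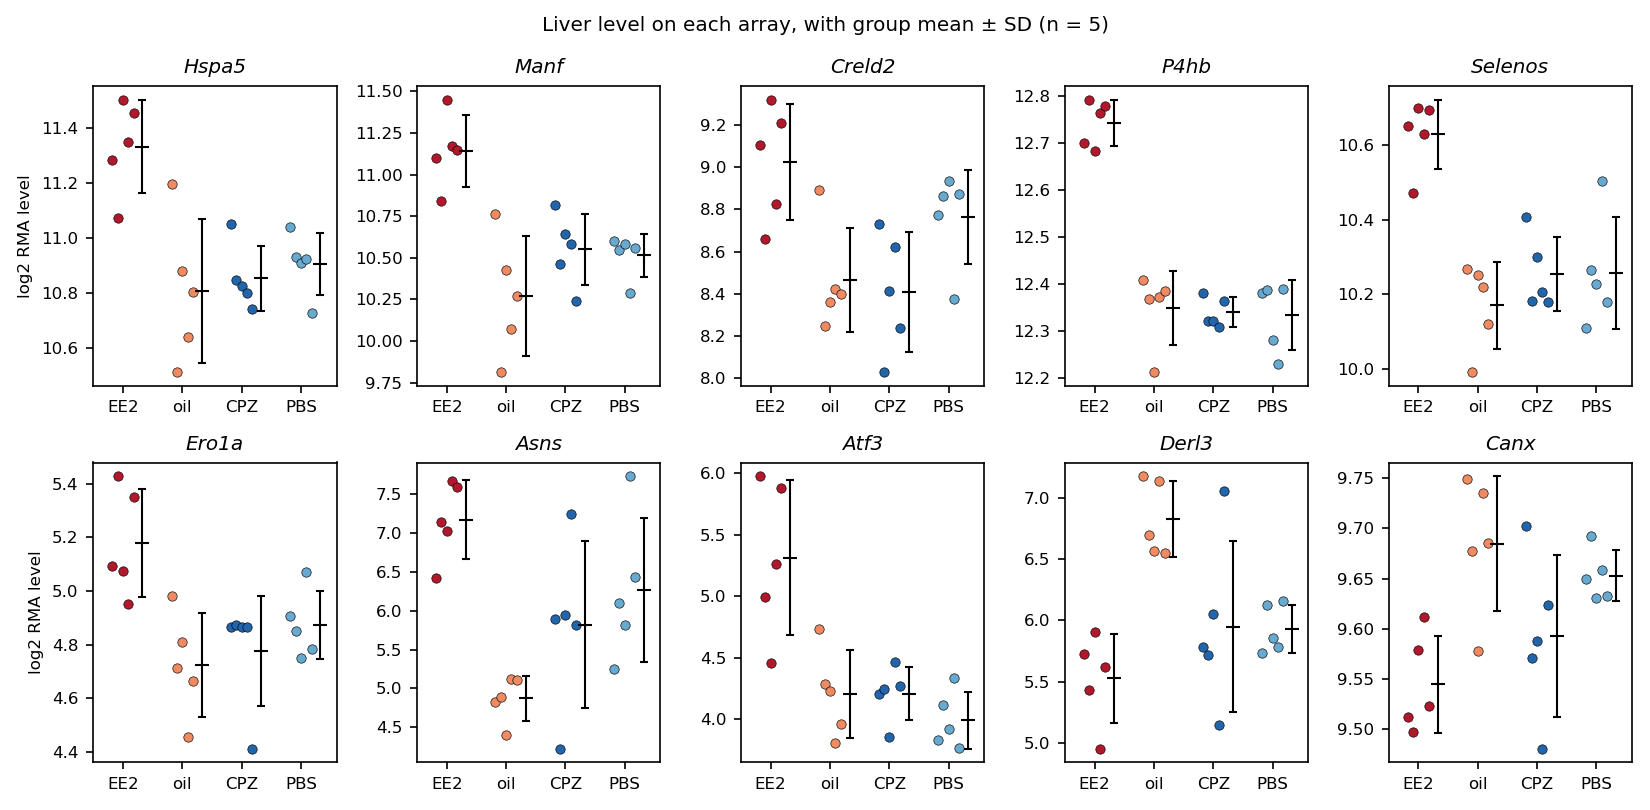
Log2 RMA level of the genes called under both scalings with EE2, on every array of the 4 groups, with the group mean and SD (n = 5); each panel has its own axis, which does not start at 0. P4hb, Manf, Selenos and Asns lie higher on all EE2 than on all oil arrays, Derl3 lies lower, and oil array 2 is the highest oil array for Hspa5, Manf and Creld2.

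Within a group, many ATF6-branch and IRE1-branch genes were highest or lowest on the same array. Oil array 2 was the highest oil array for 12 of the 17 (70.6%), where it was the highest for 22.4% of all genes. EE2 array 15 was the highest EE2 array for 13 of the 17 (76.5%), where it was so for 19.8% of all genes, and EE2 array 13 was the lowest for 10 (58.8%), where it was so for 18.3%. Of the 8 IRE1 genes, EE2 array 15 was the highest for 4 (50%) and EE2 array 13 the lowest for 5 (62.5%), and oil array 2 was the highest for 4 (50%). Of the 9 PERK genes, EE2 array 9 was the highest for 4 (44.4%), where it was so for 22.2% of all genes, and array 15 for 1. Oil array 2 was the highest oil array for 4 of these 9 as well (44.4%). Among the PBS arrays, array 19 was the highest for 7 of the 9 PERK genes, where it was so for 21.8% of all genes. PBS array 7 was the lowest for 5, where it was so for 24.5% of all genes. Without oil array 2 the changes with EE2 were 0.62 for Hspa5, 1.00 for Manf and 0.66 for Creld2, and Syvn1 was called higher (0.32, adjusted p = 0.01). The count without oil array 2 was 12 higher and 1 lower, Canx being the gene lost.

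**Figure D4:**
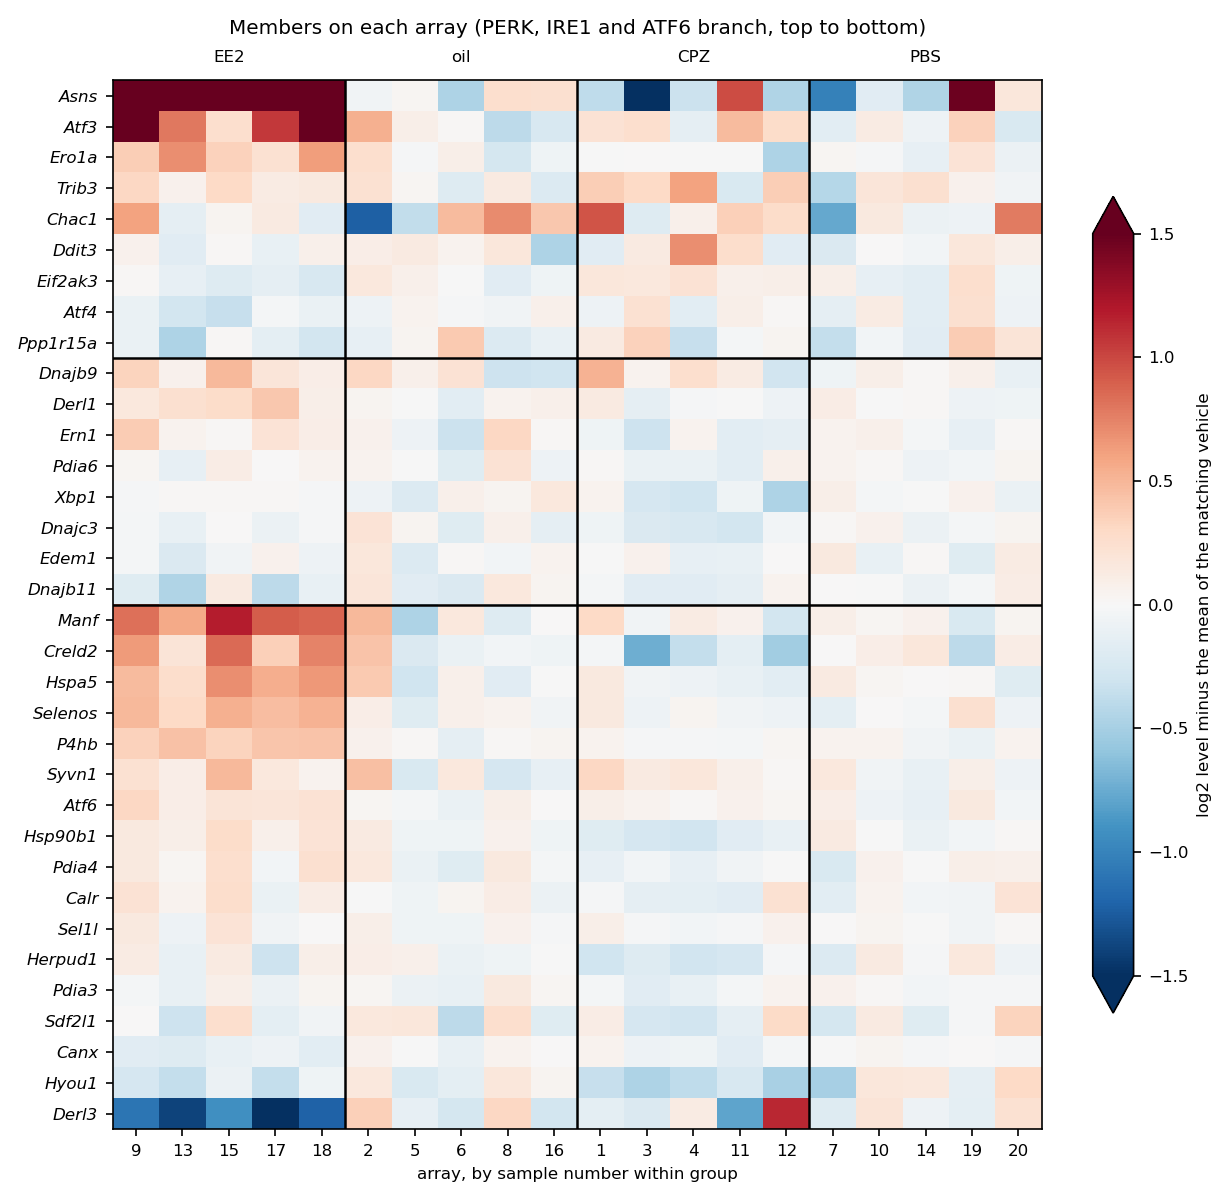
Log2 level of each of the 34 genes on each array minus the mean of its vehicle group (oil for EE2 and oil, PBS for CPZ and PBS), on a colour scale from -1.5 to 1.5 beyond which colours saturate; columns are arrays by sample number and lines part the branches. EE2 array 15 and oil array 2 are the redder columns of their groups in the ATF6 branch, and Asns is saturated on all 5 EE2 arrays.

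Among the promoters, the 9 genes with a full ERSE held 3 that rose with EE2 (Hspa5, Hsp90b1 and Creld2), 2 that fell (Derl3 and Canx) and 4 that were not called. The other 21 genes with an entry held 5 that rose and 0 that fell. Centred, these counts were 2 and 3 for the genes with the element, and 5 and 6 for the others. Manf, Atf6 and Derl1, which rose as deposited, had no promoter entry and are in none of these counts. Outside the 34 UPR genes, 10 measured genes held the full ERSE, of which 3 rose and 5 fell, where 19.2% of all genes rose and 26.7% fell. All but 1 of the 5 averaged 2.70 to 3.33 with EE2 and 2.90 to 3.63 with oil. These levels are near the lower quartile of all genes, 3.06 with EE2 and 3.16 with oil. Among the 10 is 1 gene of the further ER folding list counted below. Centred, 1 rose and 6 fell, where 12.7% and 58.5% of all genes did.

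The second comparison set CPZ against PBS. None of the 34 genes was called by limma, where 0.796% of all genes were called, 0.443% higher and 0.352% lower, and none was called with centring, where 0.984% were. At an unadjusted p under 0.05 there were 7 members, 1 higher and 6 lower, against 12.2% of all genes. Changes ran from -0.44 for Asns to 0.29 for Chac1. The 95% intervals of the 34 changes had a median half-width of 0.19 and a widest of 0.90, for Asns, so a change of the size of Hspa5's with EE2 lay outside the CPZ interval of Hspa5 (-0.27 to 0.16).

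The 2 genes lowest in p with CPZ encode chaperones. Hsp90b1 stood at 12.01, 11.94, 11.90, 12.02 and 12.08 on CPZ arrays 1, 3, 4, 11 and 12, against 12.32, 12.18, 12.10, 12.15 and 12.21 on the PBS arrays. The CPZ arrays all lay below the PBS arrays. It was the 1 member with groups apart, where 2.98% of all genes had them apart in either direction, and the change was -0.20 (SE 0.06, adjusted p = 0.102). Hyou1 stood at 5.44, 5.33, 5.41, 5.55 and 5.31 with CPZ and at 5.29, 5.97, 5.94, 5.65 and 6.10 with PBS. PBS array 7 was the lowest of all 10, and the change was -0.38 (adjusted p = 0.143), or -0.51 without that array (adjusted p = 0.0194). Creld2 changed by -0.36 (adjusted p = 0.322), Herpud1 by -0.21 (adjusted p = 0.319), Xbp1 by -0.20 (adjusted p = 0.284), Dnajc3 by -0.17 (adjusted p = 0.302) and Trib3 by 0.28 (adjusted p = 0.41). Hyou1 was called with array weights too (-0.46, adjusted p = 0.0339).

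CPZ arrays 1 and 11 and PBS array 20 differed from the rest of their groups in Lcn2, an acute phase gene, at 10.13, 10.41 and 9.39, where the other CPZ arrays stood between 5.01 and 6.34 and the other PBS arrays between 5.43 and 5.81. Without these 3 arrays, an alternative chosen after the data were seen, Xbp1 was called lower with CPZ (-0.36, adjusted p = 0.0363) and no other member was. On CPZ arrays 1 and 11 Xbp1 stood at 11.67 and 11.55, the highest of its group, where the others stood at 11.36, 11.31 and 11.15. The part of the acute phase genes in this value was not tested.

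The vehicles were set against each other as oil minus PBS. None of the 34 genes was called, where 0.0486% of all genes were, 0.0182% higher and 0.0304% lower, and the count was 0 with centring too. At an unadjusted p under 0.05 there were 5 members, 3 higher and 2 lower, against 8.59% of all genes. Asns had a change of -1.40 (SE 0.43, adjusted p = 0.296) and Derl3 of 0.90 (SE 0.25, adjusted p = 0.226), each with all oil arrays on 1 side of all PBS arrays, as for Sel1l (0.11, adjusted p = 0.614). The groups were apart in either direction for 1.69% of all genes. The changes of Asns and Derl3 lie opposite in sign to those with EE2, and the oil arrays enter both comparisons. On the log2 scale EE2 averaged 7.17 ± 0.51 for Asns and 5.53 ± 0.36 for Derl3, and PBS 6.27 ± 0.93 and 5.93 ± 0.20 (SD, n = 5 each). For Hspa5, Manf, Creld2, P4hb and Selenos the change between the vehicles ran from -0.30 to 0.02.

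The difference of the responses, EE2 minus oil less CPZ minus PBS, was called higher for 10 members and lower for 1, where 31.6% of all genes were called, 14.6% higher and 17% lower. With centring it was 8 and 4, where 49.3% of all genes were called, 10.2% higher and 39.1% lower. The 10 genes were Asns (2.75, adjusted p = 0.00171), Creld2 (0.92), Atf3 (0.89), Manf (0.84), Hspa5 (0.58), Ero1a (0.55), Selenos (0.46), P4hb (0.39), Hsp90b1 (0.36) and Derl1 (0.25), and the 1 that fell was Derl3 (-1.32, adjusted p = 0.00665). Each value also holds the gap between the vehicles, since oil minus PBS enters it with its sign turned. That gap was -1.40 for Asns, 0.90 for Derl3 and -0.30 for Creld2. Asns averaged 7.17 with EE2 and 5.82 with CPZ, and Derl3 5.53 and 5.95. A large part of the values of Asns and Derl3 is thus the difference between oil and PBS. For Creld2 the 2 changes were 0.56 with EE2 and -0.36 with CPZ, and for Hsp90b1 they were 0.16 with EE2 and -0.20 with CPZ, where neither CPZ change was called. For Atf3 (adjusted p = 0.0375) and Derl1 (adjusted p = 0.0388) the call was lost with centring, at adjusted p = 0.0533 and 0.28. Quantile normalization lost both calls too (adjusted p = 0.0925 and 0.0778), and that of Ero1a (0.40, adjusted p = 0.0608). Xbp1 (0.21, adjusted p = 0.171) was called higher without the 3 arrays of high Lcn2 (0.37, adjusted p = 0.00926). Over the 34 genes the EE2 and CPZ changes had a Pearson r of -0.22 and a Spearman rho of 0.06, against 0.17 and 0.09 over all genes, and the genes of 1 array share its scaling.

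Other genes of the same pathways were counted with EE2 as lists. Beside these counts, 19.2% of all genes rose and 26.7% fell, or 12.7% and 58.5% with centring. Of 23 further ATF4 and amino acid response genes 10 rose and 3 fell (8 and 6 with centring). Ddit4, an inhibitor of mTORC1, stood at 9.00 ± 0.40 with EE2 and 5.30 ± 0.25 with oil, a change of 3.70 (SE 0.17, adjusted p = 2.69e-13). Aldh18a1, the first enzyme of proline synthesis, rose by 1.34 (SE 0.07) and Phgdh, the first enzyme of serine synthesis, fell by 1.30 (SE 0.12). Genes of amino acid synthesis in the list thus moved both ways.

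Protein entry and glycosylation lists had more genes higher than lower with EE2 as deposited, where 19.2% of all genes rose and 26.7% fell. With centring 12.7% of all genes rose and 58.5% fell. Of 21 genes of ER translocation 12 rose and 2 fell, though 6 rose and 7 fell with centring. The smallest p-values were those of Srp19 of the signal recognition particle (0.64, SE 0.06, adjusted p = 3e-08), Ssr3 (0.50) and Ssr2 (0.42) of the translocon-associated complex. Of 18 N-glycosylation genes 10 rose and 1 fell, and 9 rose and 5 fell with centring. Dpagt1, which starts the lipid-linked sugar, stood at 8.51 ± 0.07 with EE2 and 7.53 ± 0.10 with oil (change 0.98, SE 0.05, adjusted p = 4.39e-12), and the oligosaccharyltransferase genes Stt3a and Dad1 rose by 0.52 and 0.41.

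The remaining lists gave the following with EE2, where 19.2% of all genes rose and 26.7% fell (12.7% and 58.5% with centring). Of 19 further ER folding genes 9 rose and 3 fell (5 and 5 with centring), led by Dnajc10 at 0.59, Qsox1 at 0.66 and Txndc5 at 0.37. Of 14 further ERAD genes 7 rose and 4 fell (2 and 6), with Ube2g2 at 0.57, Man1b1 at 0.42 and Ufd1 at -0.24. Of 20 ER to Golgi transport genes 10 rose and 2 fell (6 and 4), with Mcfd2 at 0.51, Tmed10 at 0.58 and Sec31a at 0.45. Of 16 genes for other eIF2α kinases, phosphatases and membrane-bound transcription factors 5 rose and 2 fell (5 and 7), with the site-2 protease gene Mbtps2, whose product cuts ATF6, at 0.55, Creb3 at 0.38 and the heme-regulated kinase gene Eif2ak1 at -0.37. None of 7 cytosolic heat shock genes was called, and with centring 2 fell. With CPZ 1 gene of all these lists was called, Creb3l2 (0.48, SE 0.07, adjusted p = 0.00321), where 0.796% of all genes were called.

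**Figure D5:**
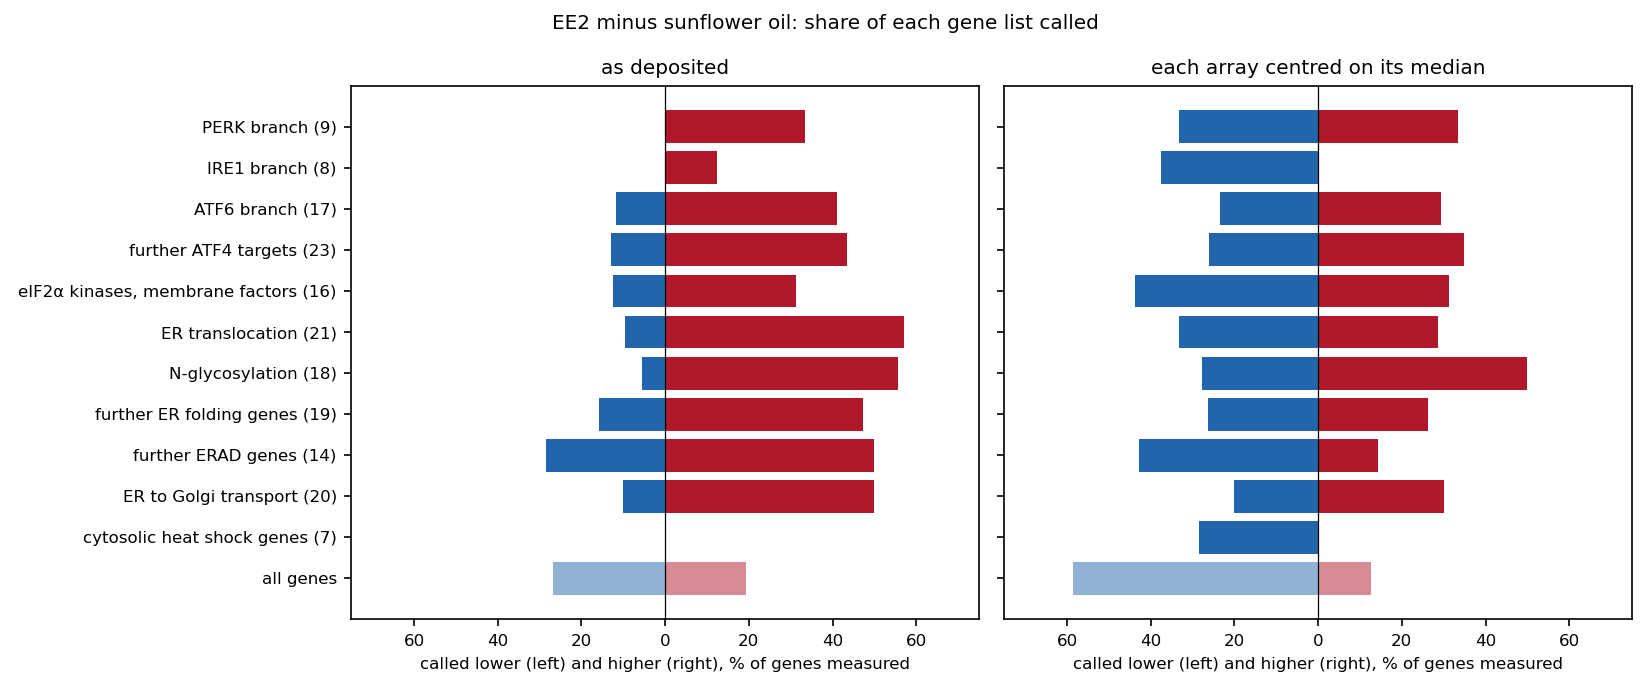
Share of each list's measured genes (number in brackets) called lower, to the left of 0, and higher, to the right of 0, with EE2 minus sunflower oil, for the values as deposited and with each array centred on its median; the pale bars are all 16464 genes. The share called lower of all genes was 26.7% as deposited and 58.5% with centring, and each list's split moved towards lower calls with centring.

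Markers of other cells of liver tissue moved with EE2 as well, and in bulk tissue a changed number of cells of a type and changed RNA per cell cannot be told apart. Beside the counts below, 19.2% of all genes rose and 26.7% fell, or 12.7% and 58.5% with centring. Of 14 macrophage markers 13 rose and 0 fell, with centring too, and their mean level was 8.57 to 9.21 on the EE2 arrays and 7.36 to 7.70 on the oil arrays. Of 10 neutrophil markers 5 rose and 0 fell, or 4 and 1 with centring (4.63 to 4.91 with EE2, 3.62 to 3.87 with oil). Of 10 B and plasma cell markers 7 rose and 0 fell, or 5 and 1 with centring (4.63 to 4.97 with EE2, 3.97 to 4.14 with oil). Of 9 T and NK cell markers 4 rose and 1 fell, or 4 and 3 with centring (3.83 to 4.18 with EE2, 3.38 to 3.56 with oil). Plasma cells and acinar cells are secretory cells known for high levels of many UPR genes. Of 8 pancreas acinar markers 1 rose and 3 fell, or 1 and 7 with centring (3.79 to 3.98 with EE2, 4.05 to 4.20 with oil), with 4 of the 8 under the lower quartile of all genes with EE2 and 3 with oil. Of 7 cholangiocyte markers 0 rose and 1 fell, or 0 and 4 with centring (3.35 to 3.40 with EE2, 3.43 to 3.54 with oil). Acute phase genes, which hepatocytes secrete in inflammation, had 9 of 13 higher and 0 lower, or 8 and 0 with centring, at 10.57 to 11.19 on the EE2 arrays and 9.37 to 9.63 on the oil arrays. With CPZ 3 macrophage markers rose (Cd68, C1qa and Adgre1), at list means of 7.59 to 8.37 with CPZ and 7.00 to 7.44 with PBS. Of all genes 0.443% rose with CPZ. The part of these cells and of the acute phase genes in the changes of the UPR genes was not tested.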

How the data were processed

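Liver RNA from 20 samples, 5 in each of 4 groups taken from the labels, was measured on Affymetrix 3′ IVT arrays. The authors used RMA, per the submitters' processing notes, and deposited 1 log2 level per gene and array. Which arrays were normalized together is not given in the sources used here. Of 17306 probe sets 16464 carried 1 gene symbol, 0 several and 842 none, and the last were left out. No replicate arrays held identical values.

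All 20 arrays and all named genes entered 1 limma fit with a mean for each of the 4 groups (R 4.3.3, limma 3.58.1, 16 residual degrees of freedom), with no filter and no covariate. Within a comparison, two-sided p-values of all genes were adjusted together (Benjamini-Hochberg). Alternatives were array centring, quantile normalization, array weights, dropping the 30% of genes lowest in mean, a robust prior with an intensity trend, the 10 arrays of a comparison alone, leaving out each array, and, added after the data were seen, leaving out the 3 CPZ and PBS arrays of high Lcn2. The fit was tested on simulated arrays in which few genes were shifted, where with EE2 45.9% of all genes were called. That test does not measure how sound the calls given here are. Promoters are from RefSeq.

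The UPR genes and all lists were chosen with earlier results of these data known. Every measured UPR gene is named. Of another pathway list the 3 genes with the smallest p may be named, and of a marker list the 3 with the highest mean level; Lcn2, the 3 macrophage genes called with CPZ and Creb3l2 were named after their values were seen.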

Additional observations from a re-analysis of the deposited data

Results flagged for a closer look

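A single array stood apart from the others of its group, by Dixon's test at the 95% level, in 5 of 136 combinations of a UPR gene and a group, where chance alone gives about 6.8. In oil, Creld2 was high on array 2 at 8.89, with the others at 8.25 to 8.42. Ddit3 was low on oil array 16 at 5.78, with the others at 6.30 to 6.41, and P4hb was low on oil array 6 at 12.21, with the others at 12.37 to 12.41. Ero1a was low on CPZ array 12 at 4.41, with the others at 4.86 to 4.87. Manf was low on PBS array 19 at 10.29, with the others at 10.54 to 10.60.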

How the results depend on the processing

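No paired analysis was possible because no sample number occurs in more than 1 group. Of the 13 UPR genes called with EE2, Atf3, Asns, Ero1a, Hspa5, P4hb, Manf, Creld2, Selenos and Derl3 kept their direction and call in all 17 alternatives. Canx and Derl1 kept the call in 16, Atf6 in 15 and Hsp90b1 in 10. Some of the 17 leave the size of each EE2 change as it was and can alter only its p-value. They are the changed prior, the dropped genes, the 10 arrays alone and leaving out the CPZ and PBS arrays of high Lcn2. No called change turned its direction in any alternative run. The count of lower genes with EE2, 2 as deposited, was 10 with centring. Leaving out 1 array at a time gave 1 to 3 lower and 10 to 12 higher, with 1 lower without oil array 2. With CPZ the count of lower genes, 0 as deposited, was 1 with array weights (Hyou1, -0.46, adjusted p = 0.0339), 1 without the 3 arrays of high Lcn2, and 0 to 1 without 1 array at a time. For the difference of the responses the lower count, 1 as deposited, was 4 with centring (Derl3, Eif2ak3, Atf4 and Canx), 2 without the genes of lowest mean and 2 with array weights (Derl3 and Eif2ak3), and 1 to 2 without 1 array at a time, where the higher count was 8 to 10. In that comparison Atf3 kept its call in 15 of 26 alternatives, Derl1 in 13 and Ero1a in 25, and all 3 lost it with quantile normalization. Without the 3 arrays of high Lcn2 Xbp1 was called higher there (0.37, adjusted p = 0.00926). The cause of these moves was not tested, save that centring lowers every EE2 change by the shift of the array medians. The number of arrays limits the precision, and signal over background was not analysed here.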
